A study of Oryza sativa with 24 samples.

Results

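The H3K4me3 peaks of both reciprocal crosses between 2 rice cultivars, the F1 hybrid labelled Nipponbare/93-11 and the one labelled 93-11/Nipponbare, were set against those of both parents, the japonica cultivar Nipponbare and the indica cultivar 93-11. All peaks of the 4 H3K4me3 lists were taken, which gave 116271 peaks of the 410072 in the 16 lists analysed for this series. They fell into 30697 peaks in Nipponbare/93-11, 29775 in 93-11/Nipponbare, 28273 in Nipponbare and 27526 in 93-11. Merged across lines, they made 32707 regions. The shoots came from greenhouse seedlings at the 4-leaf stage, grown for 4 weeks at 28 degrees with 16 hours of light a day, and no line was treated. The labels give 1 H3K4me3 library per line, do not state whether plants were pooled, and leave unsaid which cultivar served as the mother of which hybrid.

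H3K4me3, the trimethylation of lysine 4 of histone H3, is laid down around the start of transcribed genes by methyltransferase complexes, and in plants it is a standard mark of active promoters. An F1 hybrid carries a copy of each parental genome in every nucleus. A peak that only 1 parent holds can be listed or not listed in the hybrid. The lists do not separate the parental copies, so a listed peak does not show whether 1 copy or both carried the mark.

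A deposited list gives the position of each peak and no height, so a peak here is present or not listed, and its width is the only graded measure. Peaks covered 45.4 Mb in Nipponbare/93-11, 47.3 Mb in 93-11/Nipponbare, 41.1 Mb in Nipponbare and 41.2 Mb in 93-11. The median widths were 1368, 1481, 1354 and 1396 bp in the same order. The hybrid lists were thus longer than either parental list, and 93-11/Nipponbare had the widest peaks. Read depth is unknown, and list length can follow depth and calling threshold as well as chromatin. With 1 library per line there is no replicate error and no test was made. The intervals given are 95% intervals by the exact Clopper-Pearson method and hold counting error alone, so a difference beyond them is one between 2 libraries. Neighbouring peaks share their library and are not replicates of a line.

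Most parental H3K4me3 peaks were found again in both hybrids, and single-parent peaks were missing from a hybrid far more often than parent-shared ones. Of the 28273 Nipponbare peaks, 24481 overlapped a 93-11 peak by at least 1 bp and are called parent-shared, and 3792 (13.4%) did not and are called Nipponbare-only. The 93-11 list held 3063 such 93-11-only peaks (11.1%). All lists were compared in 1 set of coordinates, and the genome build is not given. The part of sequence that differs between the cultivars, through read placement, in these single-parent classes was not tested. Parent-shared peaks of the Nipponbare list were listed in Nipponbare/93-11 in 99.1% of cases (99.0 to 99.2%) and in 93-11/Nipponbare in 99.0% (98.9 to 99.1%). In all, 59 of them were missing from both hybrid lists.

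Single-parent peaks were listed less often than parent-shared ones, and the 2 hybrids differed for those of Nipponbare. Nipponbare/93-11 listed 3099 of the 3792 Nipponbare-only peaks (81.7%, 80.5 to 82.9%), and 93-11/Nipponbare listed 2615 (69.0%, 67.5 to 70.4%). Of the 93-11-only peaks, Nipponbare/93-11 listed 2162 (70.6%, 68.9 to 72.2%) and 93-11/Nipponbare 2134 (69.7%, 68.0 to 71.3%). The intervals of the hybrids lie apart for Nipponbare-only peaks and overlap for 93-11-only peaks. For parent-shared peaks the hybrids differed little, with 214 not listed in Nipponbare/93-11 and 248 not listed in 93-11/Nipponbare.

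Chance overlap was described by moving both hybrid lists along each chromosome in 100 evenly spaced circular steps, which keeps peak number, width and most of the spacing. Moved lists overlapped 22.2% of Nipponbare-only peaks on average for Nipponbare/93-11 (lowest 20.9%, highest 23.7%) and 22.4% for 93-11/Nipponbare (20.9 to 23.8%). For 93-11-only peaks the averages were 21.8% (19.2 to 24.6%) and 22.1% (19.6 to 25.1%). All observed shares lay above the highest moved list, by 59.5 and 46.5 points over the average for Nipponbare-only peaks and by 48.8 and 47.5 points for 93-11-only peaks, in Nipponbare/93-11 and 93-11/Nipponbare in turn. Moves of only 10 to 100 kb, which leave a peak in its own neighbourhood, gave 21.5 and 21.6% for Nipponbare-only peaks and 24.5 and 24.8% for 93-11-only peaks. These levels describe how densely the hybrid lists fill the genome and carry no p-value.

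Seen over both hybrids together, 2465 Nipponbare-only peaks (65.0%) were in both lists and 543 (14.3%, 13.2 to 15.5%) in neither, where moved lists left 75.9% in neither. Of the 93-11-only peaks, 1781 (58.1%) were in both and 548 (17.9%, 16.5 to 19.3%) in neither, against 76.2% with moved lists. The peaks in 1 hybrid alone show the imbalance most directly. Among 784 such Nipponbare-only peaks, 634 (80.9%, 77.9 to 83.6%) were in Nipponbare/93-11 and 150 in 93-11/Nipponbare. Among 734 such 93-11-only peaks, 381 (51.9%, 48.2 to 55.5%) were in Nipponbare/93-11 and 353 in 93-11/Nipponbare. Presence in one hybrid also went with presence in the other. 93-11/Nipponbare listed 79.5% of the Nipponbare-only peaks that Nipponbare/93-11 listed and 21.6% (18.6 to 24.9%) of those it did not. Moved lists of 93-11/Nipponbare averaged 22.4% over all Nipponbare-only peaks, so the lower share was at the level of moved lists. In the other direction, Nipponbare/93-11 listed 94.3% of those that 93-11/Nipponbare listed and 53.9% (51.0 to 56.7%) of those it did not, where moved lists of Nipponbare/93-11 averaged 22.2% over all Nipponbare-only peaks. For 93-11-only peaks the shares were 82.4% and 39.2% in 93-11/Nipponbare and 83.5% and 41.0% in Nipponbare/93-11.

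To follow width as well as presence, each merged parental region was sorted into 1 of 5 fates per hybrid. A region counted as kept when the hybrid peak was within 1.5-fold of the mean parental width, as widened or narrowed beyond that, as split or joined when a list had more than 1 peak there, and as not listed otherwise. Being kept was the commonest fate in every class. Of 24403 parent-shared regions, 95.1% were kept in Nipponbare/93-11 and 94.6% in 93-11/Nipponbare. Of 3727 Nipponbare-only regions, 76.2% and 63.5% were kept and 18.4% and 31.3% were not listed in Nipponbare/93-11 and 93-11/Nipponbare. Of 2989 93-11-only regions, 64.8% and 64.4% were kept and 29.7% and 30.8% not listed. Widening and narrowing together took up a few percent of each class, so absence outnumbered width change among single-parent regions and width change outnumbered absence among parent-shared ones.

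**Figure D1:**
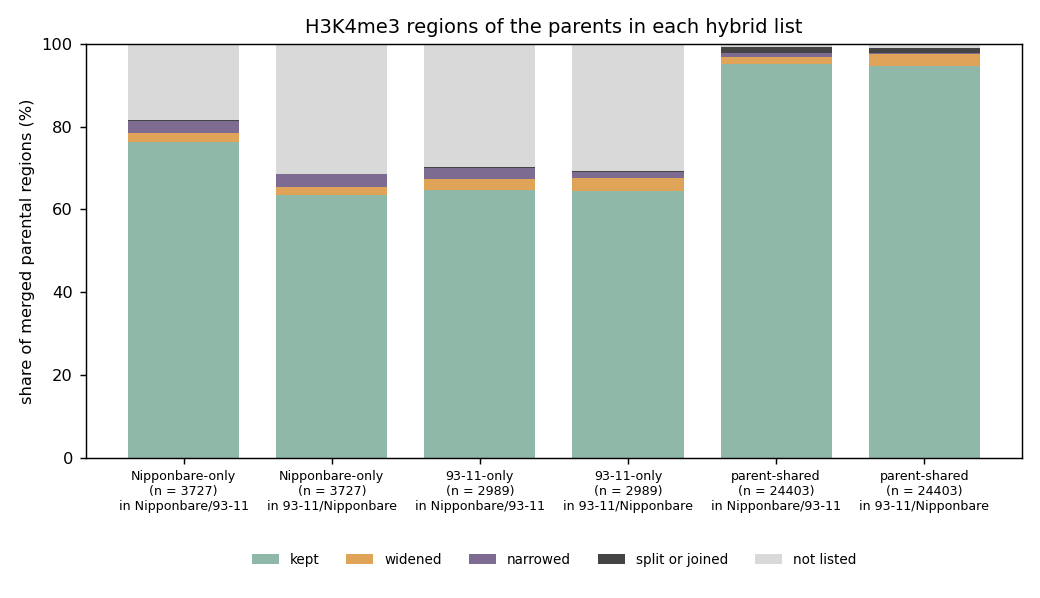
Stacked bars give the share in percent of merged parental regions that were kept, widened, narrowed, split or joined, or not listed in each hybrid, for Nipponbare-only (n = 3727), 93-11-only (n = 2989) and parent-shared regions (n = 24403). The not-listed part is 18.4% for Nipponbare-only regions in Nipponbare/93-11 and between 29.7 and 31.3% in the other 3 single-parent bars.

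Narrow single-parent peaks were the ones most often missing from the hybrids. Nipponbare-only peaks in both hybrids had a median width of 1290 bp in Nipponbare, those in Nipponbare/93-11 alone 1073.5 bp, those in 93-11/Nipponbare alone 995 bp and those in neither 982 bp. The 93-11-only peaks followed the same order at the ends, with 1158 bp in both hybrids and 900.5 bp in neither. When each parental list was cut into 5 classes of equal size by width, Nipponbare/93-11 listed 69.7% (67.1 to 72.3%) of Nipponbare-only peaks in the narrowest class, then 82.0, 90.7, 90.9 and 88.8% in the wider ones. 93-11/Nipponbare listed 53.3% (50.5 to 56.1%), then 67.7, 78.5, 83.5 and 81.7%. Nipponbare/93-11 was ahead in each of the 5 classes, although in the widest the intervals overlapped (85.3 to 91.7% and 77.5 to 85.4%). For 93-11-only peaks the narrowest class stood at 62.4% in Nipponbare/93-11 and 60.0% in 93-11/Nipponbare, and the third at 80.4 and 83.3%. The intervals for 93-11-only peaks overlapped in every class.

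Moved lists also overlapped wider peaks more often. For Nipponbare/93-11 they hit 18.7% of Nipponbare-only peaks in the narrowest class, 22.7% in the third and 30.6% in the widest. The listed shares in those classes were 69.7, 90.7 and 88.8%. The part of chance overlap in the rise with width was not tested. The share missing from both hybrids was lower among wider peaks, at 23.9% of Nipponbare-only peaks in the narrowest class and 7.21% in the third. For 93-11-only peaks it was 25.8% in the narrowest class and 9.01% in the third. Parent-shared peaks of the narrowest Nipponbare class were listed at 97.6% in Nipponbare/93-11 and 97.4% in 93-11/Nipponbare. Those peaks were chosen for being listed in both parents, so their shares do not describe narrow peaks in general. Whether narrowness or single-parent status went with absence from the hybrid lists was not tested.

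**Figure D2:**
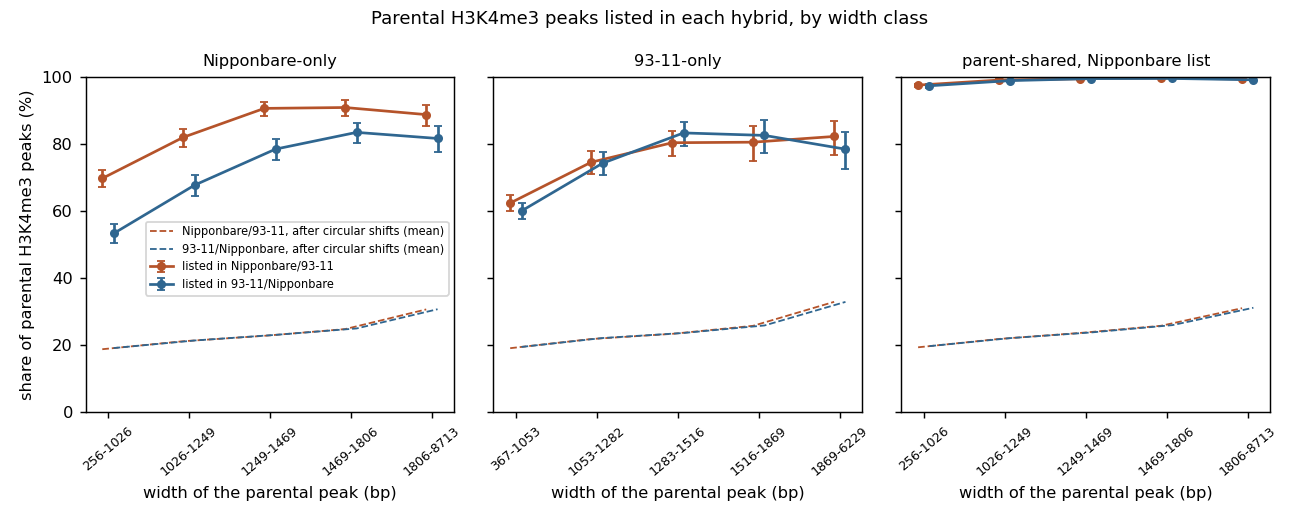
Points give the share in percent of parental H3K4me3 peaks listed in each hybrid (vertical axis) in 5 width classes in bp (horizontal axis), with 95% intervals, for Nipponbare-only, 93-11-only and parent-shared peaks, and dashed lines give the mean after circular shifts. The 2 hybrids lie apart for Nipponbare-only peaks, at 69.7 and 53.3% in the narrowest class, except that their intervals overlap in the widest class. They lie close together in the other panels.

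The difference between the hybrids at Nipponbare-only peaks was spread over the genome. Nipponbare/93-11 listed the larger share on 12 of 12 chromosomes, and the intervals lay apart on 7 of them. The gap was smallest on chromosome 1, at 6.22 points, with 79.6% in Nipponbare/93-11 and 73.3% in 93-11/Nipponbare. It was largest on chromosome 6, at 24.7 points, with 85.4% (80.9 to 89.2%) and 60.7% (54.8 to 66.3%). The next largest gaps were on chromosome 2, with 80.2% in Nipponbare/93-11 and 61.0% in 93-11/Nipponbare, on chromosome 11, with 85.4 and 68.1%, and on chromosome 9, with 79.0 and 62.5%. The range of chromosomes was narrower in Nipponbare/93-11, from 78.1% on chromosome 4 to 86.5% on chromosome 12, than in 93-11/Nipponbare, from 60.7% on chromosome 6 to 76.0% on chromosome 7. For 93-11-only peaks, Nipponbare/93-11 was ahead on 7 chromosomes and 93-11/Nipponbare on 5, the gaps ran from -3.69 to 6.67 points, and the intervals lay apart on 0 of 12. Chromosome 9 held the largest share of 93-11-only peaks found in both hybrids, 64.8%, and chromosome 12 the smallest, 54.0%.

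**Figure D3:**
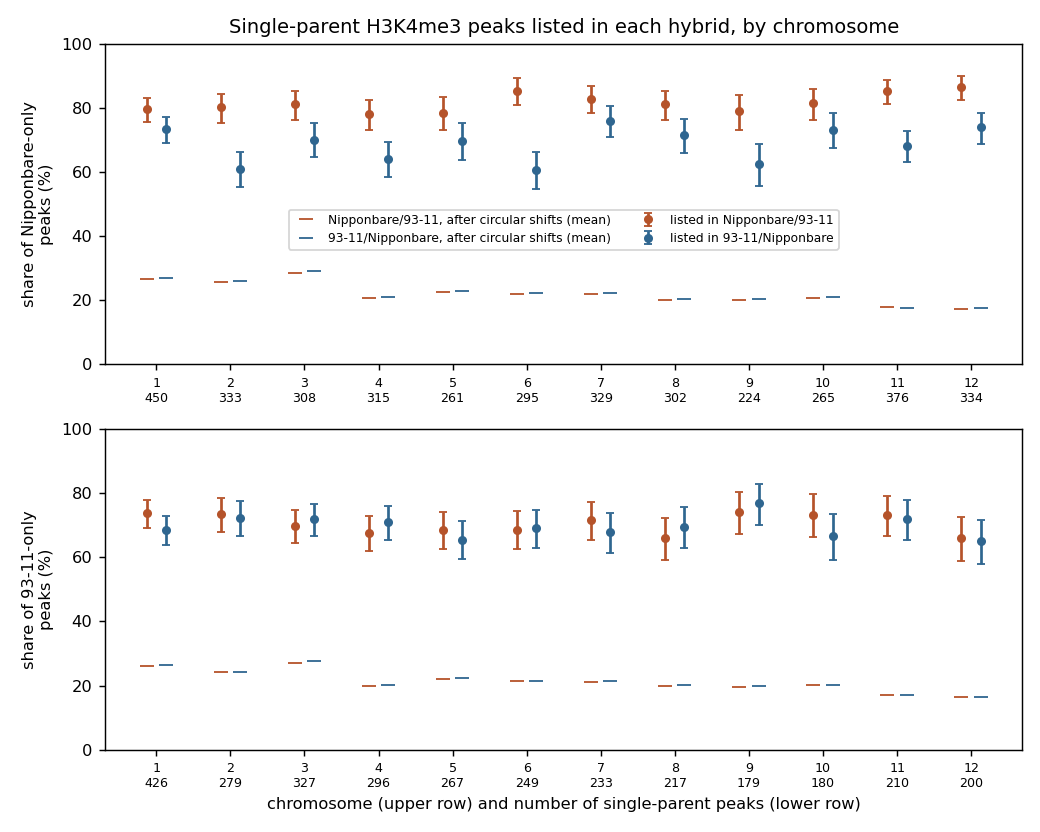
Points give the share in percent of Nipponbare-only (upper panel) and 93-11-only peaks (lower panel) listed in each hybrid on each of the 12 chromosomes, with 95% intervals, the number of peaks under each chromosome, and bars for the mean after circular shifts. Nipponbare/93-11 lies above 93-11/Nipponbare on every chromosome in the upper panel, by 6.22 to 24.7 points, and the order varies in the lower panel.

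Nipponbare-only peaks in long stretches were listed more often in Nipponbare/93-11 than those standing singly. Of the Nipponbare-only peaks, 2148 had parent-shared peaks on both sides, and 283 belonged to stretches of 5 or more consecutive Nipponbare-only peaks. The share in Nipponbare/93-11 was 87.6% (83.2 to 91.2%) in those long stretches and 79.8% (78.1 to 81.5%) for peaks standing singly. In 93-11/Nipponbare it was 73.9% (68.3 to 78.9%) and 67.9% (65.9 to 69.8%), with intervals that overlap. The 93-11-only peaks did not show this order. Nipponbare/93-11 listed 71.3% (69.4 to 73.2%) of the 2291 standing singly, 68.2% (64.1 to 72.0%) of 556 in stretches of 2 and 68.2% (61.2 to 74.5%) of 201 in stretches of 3 or 4, with intervals that overlap, and only 15 lay in stretches of 5 or more. Missing from both hybrids were 17.3, 19.2 and 20.9% of these 3 sets.

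Presence of Nipponbare-only peaks differed with distance to the nearest peak of the other parent, but did not rise steadily with it. Those within 1 kb of a 93-11 peak were listed least, at 71.9% (67.4 to 76.1%) in Nipponbare/93-11 and 58.2% (53.4 to 62.9%) in 93-11/Nipponbare. Those 5 to 20 kb away were listed most, at 86.5% (84.7 to 88.3%) and 75.1% (72.8 to 77.3%). At 1 to 5 kb the shares were 79.7 and 66.9%. Beyond 20 kb they were lower again, at 81.9% (78.4 to 85.1%) and 66.4% (62.3 to 70.4%) of 542 peaks. Median widths were 1257 bp within 1 kb and 1185 bp at 5 to 20 kb, so the peaks listed least were here the wider ones. For 93-11-only peaks the lowest shares were 66.9% in Nipponbare/93-11 and 61.7% in 93-11/Nipponbare within 1 kb of a Nipponbare peak, and the other distances lay between 67.2 and 72.5%.

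H3K9ac, an acetylation that marks active promoters alongside H3K4me3, was measured in separate libraries of the same lines and took no part in choosing the peaks. Its share went with the H3K4me3 state of the hybrids, in the hybrids themselves and also in the parent that held the peak. At Nipponbare-only peaks in both hybrids, in Nipponbare/93-11 alone, in 93-11/Nipponbare alone and in neither, Nipponbare/93-11 listed H3K9ac on 92.0, 72.1, 58.0 and 45.9%. 93-11/Nipponbare listed it on 87.3, 58.2 and 32.0% of the first, the second and the last set and on 75 of the 150 peaks in the third. Nipponbare itself listed it on 92.9, 81.4, 74.0 and 65.7% of the same 4 sets. At 93-11-only peaks, the share with H3K9ac was 80.2, 64.6, 51.0 and 34.7% in Nipponbare/93-11, 74.1, 57.7, 41.6 and 29.9% in 93-11/Nipponbare, and 81.9, 70.1, 61.8 and 54.0% in 93-11, in the same order of sets. Every one of these lists had H3K9ac most often where both hybrids held the H3K4me3 peak and least often where neither did. In the parent without the H3K4me3 peak the 2 directions differed. Nipponbare listed H3K9ac on 45.7, 38.3, 36.5 and 20.8% of the 93-11-only sets in the same order. 93-11 listed it on 15.5, 14.5, 28.7 and 11.6% of the Nipponbare-only sets, with the highest share where 93-11/Nipponbare alone held the peak. Peaks missing from both hybrids were also the narrowest, and the part of width in these shares was not tested.

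Over all Nipponbare-only H3K4me3 peaks, H3K9ac was listed on 80.7% (79.4 to 81.9%) in Nipponbare/93-11 and 73.1% (71.6 to 74.5%) in 93-11/Nipponbare. At 93-11-only peaks the shares were 66.8% (65.1 to 68.4%) and 60.4% (58.7 to 62.2%). H3K9ac thus differed between the hybrids the same way at both kinds of peak, unlike H3K4me3. At parent-shared peaks of the Nipponbare list it lay on 96.4% in Nipponbare/93-11 and 94.5% in 93-11/Nipponbare.

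**Figure D4:**
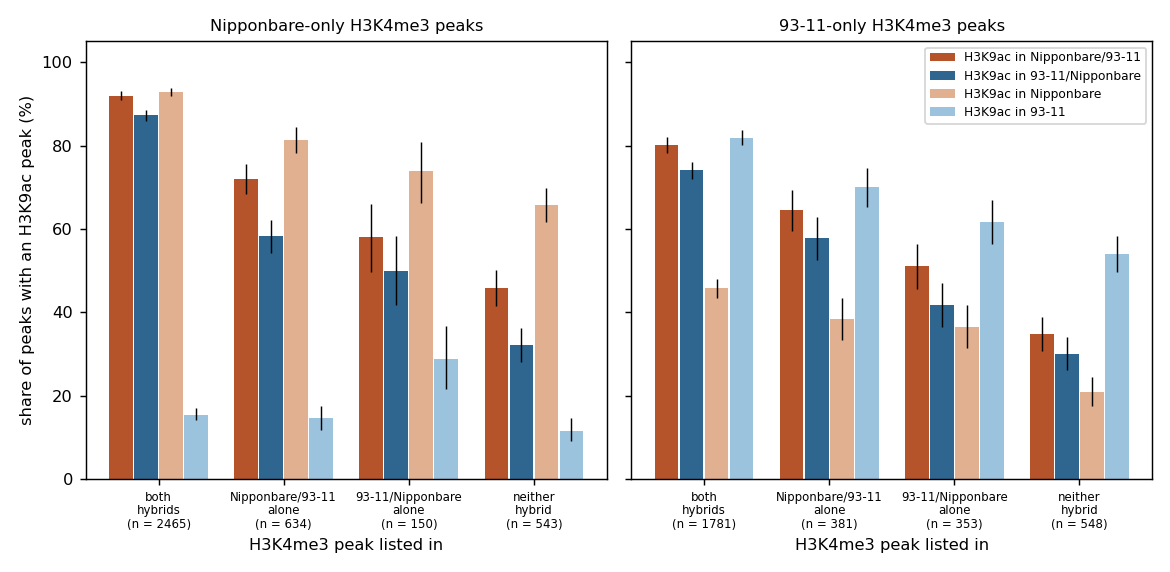
Bars give the share in percent of Nipponbare-only (left) and 93-11-only H3K4me3 peaks (right) that overlap an H3K9ac peak in each of the 4 lines, by which hybrid lists the H3K4me3 peak, with 95% intervals. In the parent that holds the H3K4me3 peak, the share is highest where both hybrids list it, 92.9% for Nipponbare and 81.9% for 93-11, and lowest where neither does, 65.7 and 54.0%.

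H3K27me3, the mark of Polycomb repression, was more frequent on peaks that only Nipponbare/93-11 listed than on those that only 93-11/Nipponbare listed, and not at 93-11-only peaks alone. Of all 93-11-only peaks, 40.1% carried it in Nipponbare/93-11, beside 54.5% of parent-shared ones. Among the 93-11-only peaks, in the H3K27me3 list of Nipponbare/93-11, those in Nipponbare/93-11 alone carried the mark in 50.9% of cases (45.8 to 56.0%), and those in 93-11/Nipponbare alone in 25.2% (20.8 to 30.1%). The gap was present in the other lists too, with 51.4 and 28.3% in 93-11/Nipponbare, 39.4 and 15.6% in Nipponbare, and 52.2 and 26.9% in 93-11. At 93-11-only peaks in both hybrids the share in 93-11 was 47.8%, and in neither 29.2%. In the H3K27me3 list of Nipponbare/93-11, parent-shared peaks of the Nipponbare list had 47.1% (39.8 to 54.5%) where Nipponbare/93-11 alone listed them, and 31 of 155 carried the mark (14.0 to 27.2%) where 93-11/Nipponbare alone did. Peaks of 1 hybrid and no other line had 46.0% (42.3 to 49.8%) and 27.7% (23.6 to 32.2%). Nipponbare-only peaks had 41.8% (37.9 to 45.7%) and 31.3% (24.0 to 39.4%), with intervals that overlap. In the H3K27me3 list of Nipponbare, the Nipponbare-only peaks had 40.7% (36.8 to 44.6%) and 23.3% (16.8 to 30.9%), with intervals apart. They had 36.0 and 28% in 93-11/Nipponbare and, in the opposite order, 15.0 and 21.3% in 93-11, with overlapping intervals in both lists.

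DNA methylation, which in plants covers transposons and other silent sequence, ran the opposite way at 93-11-only peaks. Those in Nipponbare/93-11 alone and those in 93-11/Nipponbare alone carried it on 7.87 and 12.2% in Nipponbare/93-11, on 9.45 and 15.9% in 93-11/Nipponbare, and on 11.5% (8.52 to 15.2%) and 19.8% (15.8 to 24.4%) in Nipponbare. In 93-11, which held the H3K4me3 peak, 24 of 381 and 24 of 353 did. The intervals lay apart in Nipponbare alone. Nipponbare-only peaks did not share this order in the hybrids or in 93-11. Those in Nipponbare/93-11 alone and those in 93-11/Nipponbare alone had 12.6 and 10% in Nipponbare/93-11 and 15.5 and 11.3% in 93-11/Nipponbare. In Nipponbare they had 10.4 and 11.3%, and in 93-11 15.5 and 10%, with intervals that overlap in every line. Those in both hybrids had DNA methylation on 11.8 to 14.2% across the 4 lines. Peaks of Nipponbare/93-11 and no other line had 6.37, 7.22, 5.95 and 5.67% in Nipponbare/93-11, 93-11/Nipponbare, Nipponbare and 93-11. Peaks of 93-11/Nipponbare and no other line had 10.3, 13.8, 14.9 and 10.5% in the same order. The intervals of these peaks overlapped in Nipponbare/93-11 and lay apart in the other lines.

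Where all 4 lines had a peak, hybrid widths stayed close to the parental mean. In 23670 regions with exactly 1 peak in each line, the median width ratio of hybrid to parental mean was 1.01 (0.02 on the log2 scale) in Nipponbare/93-11 and 1.08 (0.11 on the log2 scale) in 93-11/Nipponbare. Nipponbare/93-11 was wider than both parents in 35.9% of regions, narrower than both in 27.9% and between them in 36.2%. 93-11/Nipponbare was wider than both in 57.2%, narrower in 12.2% and between in 30.6%. The 93-11/Nipponbare list as a whole thus leaned to wider peaks. After dividing each hybrid's ratios by its own median, 32.0% of regions were wider and 31.9% narrower than both parents in Nipponbare/93-11, and 31.0% and 32.9% in 93-11/Nipponbare.

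Changes past 1.5-fold were few. Of the 23670 regions, 389 (1.64%) were widened and 250 (1.06%) narrowed in Nipponbare/93-11, and 699 (2.95%) widened and 65 (0.275%) narrowed in 93-11/Nipponbare. Relative to each hybrid's median ratio, the numbers were 360 widened and 276 narrowed in Nipponbare/93-11, and 357 widened and 145 narrowed in 93-11/Nipponbare. A mean of 2 lists varies less than 1 list, so single lists were compared too. Nipponbare/93-11 differed past 1.5-fold from Nipponbare in 4.86% of these regions and from 93-11 in 5.10%, and 93-11/Nipponbare in 7.06% and 5.25%. The 2 hybrids differed from each other in 4.71% and the parents in 6.06%. Relative to each pair's median ratio, Nipponbare/93-11 differed from Nipponbare in 4.63% and from 93-11 in 5.10%. For 93-11/Nipponbare these were 4.55% and 4.20%, and the parents differed in 5.82%. By this centred share past 1.5-fold, each hybrid differed less from each parent than the parents did from each other, in single libraries. The interquartile range of the log2 ratios did not keep that order. It was 0.291 for 93-11/Nipponbare over Nipponbare and 0.282 for Nipponbare over 93-11. For the remaining pairs of hybrid and parent it was 0.263 to 0.265. Both hybrids widened 158 regions, which are 40.6% of those of Nipponbare/93-11 and 22.6% of those of 93-11/Nipponbare. Both narrowed 26, which are 10.4% of the 250 in Nipponbare/93-11 and 26 of the 65 in 93-11/Nipponbare, and 10 regions went opposite ways. The comparisons share their parental lists, so a region with a short parental peak can be called widened in both. Widening was commonest where parental peaks were narrow, with 4.33% in Nipponbare/93-11 and 8.20% in 93-11/Nipponbare in the narrowest of 5 classes, against 0.697% and 1.18% in the widest.

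The regions most widened in both hybrids lay on chromosomes 1 and 9. At chr1:30456709-30459142 the peaks measured 2433 bp in Nipponbare/93-11, 2379 bp in 93-11/Nipponbare, 706 bp in Nipponbare and 947 bp in 93-11. Both hybrid peaks reached to the left of either parental peak, and all 4 lines listed H3K9ac and H3K27me3. At chr9:4464769-4468211 the widths were 3330, 3282, 1151 and 1133 bp in the same order, with H3K9ac and no H3K27me3 in all 4 lines. At chr1:25709458-25711578 they were 2032, 2120, 732 and 817 bp.

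The most narrowed regions lay on chromosomes 8 and 3. At chr8:25193374-25197048 the hybrids had peaks of 1533 and 1578 bp, and the parents 3674 bp in Nipponbare and 3341 bp in 93-11. H3K27me3 was listed there in both hybrids and in neither parent. At chr3:9800018-9803135 Nipponbare/93-11 had 1314 bp, 93-11/Nipponbare 1129 bp, Nipponbare 2690 bp and 93-11 2968 bp. At chr8:4345319-4347612 the hybrids, at 865 and 833 bp, were nearer to 93-11, at 1181 bp, than to Nipponbare, at 2293 bp.

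Where the parents differed in width, the hybrids were usually nearer to the wider one. Nipponbare was at least 1.5-fold wider than 93-11 in 556 regions, with medians of 1526 bp in Nipponbare/93-11, 1597 bp in 93-11/Nipponbare, 1744 bp in Nipponbare and 970.5 bp in 93-11. Nipponbare/93-11 was nearer to Nipponbare in 73.6% of them (69.7 to 77.2%) and 93-11/Nipponbare in 82.0% (78.6 to 85.1%). In 879 regions 93-11 was the wider parent, with medians of 1323 bp in Nipponbare/93-11, 1487 bp in 93-11/Nipponbare, 944 bp in Nipponbare and 1597 bp in 93-11. Nipponbare/93-11 was nearer to 93-11 in 62.5% (59.2 to 65.7%) and 93-11/Nipponbare in 82.6% (79.9 to 85.0%). Hybrid widths fell between the parental ones in 58.7 to 69.4% of these regions. These shares were not centred on the wider peaks of 93-11/Nipponbare.

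Nipponbare-only peaks that a hybrid listed were narrower, relative to Nipponbare, than parent-shared ones. In 93-11/Nipponbare, the median log2 ratio of hybrid to Nipponbare width was -0.03 at 2553 Nipponbare-only regions and 0.13 at 23881 parent-shared ones. In Nipponbare/93-11 it was -0.03 at 3031 Nipponbare-only regions and 0.04 at 23880 parent-shared ones. The difference was present within each of the 5 width classes of Nipponbare, at -0.22 to -0.18 in 93-11/Nipponbare and -0.12 to -0.07 in Nipponbare/93-11. Narrowing past 1.5-fold was found at 4.50% (3.73 to 5.38%) of Nipponbare-only and 0.540% of parent-shared regions in 93-11/Nipponbare, and at 3.63% (2.99 to 4.36%) and 1.30% in Nipponbare/93-11.

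For 93-11-only peaks the difference in median ratio was smaller. Widening past 1.5-fold was about as frequent as at parent-shared regions, at 3.68 and 3.14% in Nipponbare/93-11 and at 4.70 and 4.72% in 93-11/Nipponbare. Still, 93-11-only regions were narrowed past 1.5-fold more often than parent-shared ones. The shares were 3.92% (3.13 to 4.84%) and 2.06% in Nipponbare/93-11, and 1.99% (1.43 to 2.69%) and 0.653% in 93-11/Nipponbare. The median log2 ratio of 93-11-only regions to 93-11 was 0.07 in 93-11/Nipponbare, beside 0.08 at parent-shared regions, and -0.01 in Nipponbare/93-11, beside -0.00. Within width classes, 93-11-only minus parent-shared ran from -0.14 in the narrowest to -0.00 in the widest class in 93-11/Nipponbare, and from -0.07 to 0.01 in Nipponbare/93-11.

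**Figure D5:**
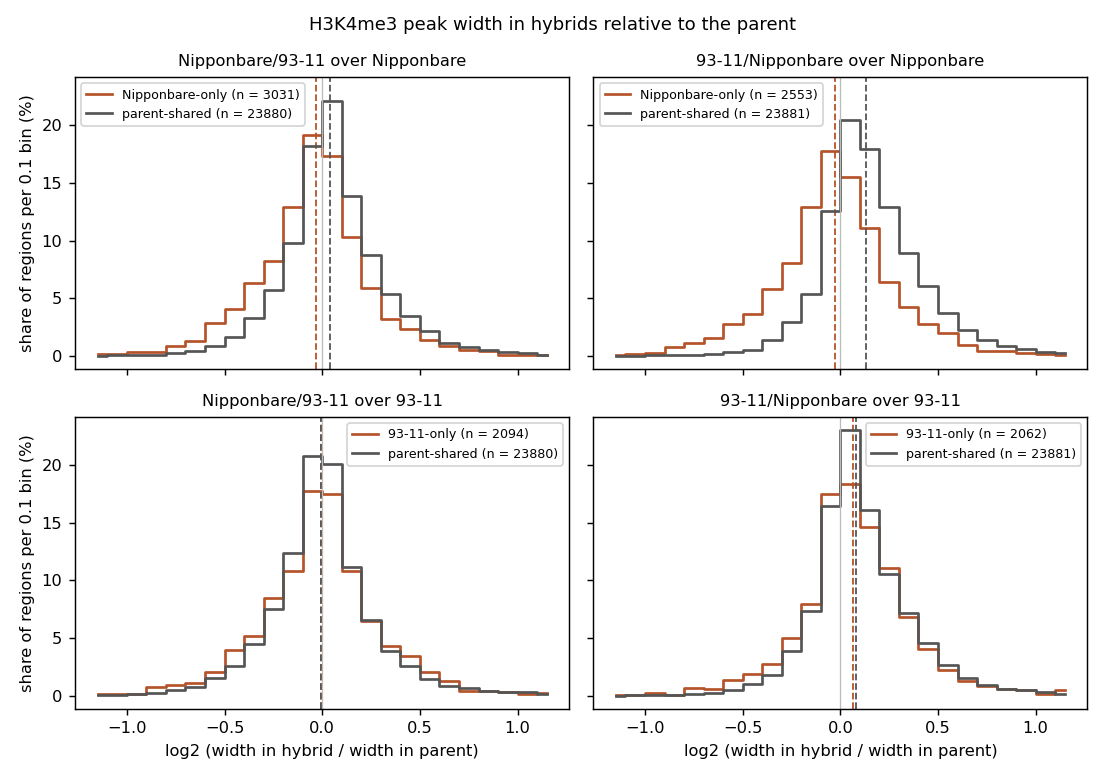
Lines give the share in percent of regions per bin of the log2 ratio of peak width in a hybrid to that in the parent named, for single-parent and parent-shared regions, with dashed lines at the medians; the few ratios outside the drawn range are not shown. In the panel of 93-11/Nipponbare over Nipponbare, the median is -0.03 for Nipponbare-only and 0.13 for parent-shared regions, and in both 93-11 panels the 2 medians nearly coincide.

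Few parental peaks were divided or fused. Nipponbare/93-11 had 2 or more peaks on 79 Nipponbare peaks and on 90 93-11 peaks, and 93-11/Nipponbare on 47 and 48. In the opposite direction, 80 peaks of Nipponbare/93-11 and 112 of 93-11/Nipponbare each joined 2 Nipponbare peaks, and 71 and 99 joined 2 peaks of 93-11. The hybrid with the wider peaks thus had fewer splits and more joins.

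The widest single-parent peaks show the range of outcomes. The widest Nipponbare-only peak in both hybrids, chr10:15867729-15872845, was 2 peaks in each hybrid and 1 peak of 5116 bp in Nipponbare. At chr3:2941703-2946637 the hybrids matched Nipponbare closely, with 4874 bp in Nipponbare/93-11 and 4927 bp in 93-11/Nipponbare against 4934 bp in Nipponbare. At chr10:15119604-15123733 the widths were 4267, 4159 and 4129 bp in the same order. H3K9ac was listed in 93-11 at all 3 places, although H3K4me3 was not. At the first place all 4 lines listed H3K9ac, and at the second 93-11 was the only line to do so. At the third, 93-11/Nipponbare was the only line without H3K9ac.

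Among 93-11-only peaks, chr6:28866587-28871464 measured 4821 bp in Nipponbare/93-11, 4890 bp in 93-11/Nipponbare and 4877 bp in 93-11. At chr7:18686646-18691103 the hybrids had 4484 and 5203 bp against 4457 bp in 93-11. At chr1:42510346-42514795 they had 4288 and 4360 bp against 4449 bp in 93-11. All of these hybrid peaks thus lay close to the full extent of the peak of the parent that carried the mark.

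Some wide peaks were in neither hybrid. The widest Nipponbare-only one, chr2:28709483-28716283, reached 6800 bp and still had H3K9ac in Nipponbare/93-11, Nipponbare and 93-11. It was followed by chr8:23000085-23004204 (4119 bp) and chr3:10337154-10341058 (3904 bp). The widest 93-11-only one, chr12:22569363-22574058 (4695 bp), kept H3K9ac and H3K27me3 in both hybrids and 93-11, and neither in Nipponbare. The next were chr10:7351296-7354730 (3434 bp) and chr8:10359668-10362663 (2995 bp). Of parent-shared peaks in neither hybrid, the one at chr5:1825273-1828689 measured 3416 bp in Nipponbare and 3224 bp in 93-11 and had no H3K9ac in any line. The one at chr7:21652439-21655570 measured 3131 bp in Nipponbare and 4146 bp in 93-11, with H3K9ac and H3K27me3 in all 4 lines. At chr9:12368538-12372317 the parental peaks, of 3779 bp in Nipponbare and 1740 bp in 93-11, overlapped only in part.

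Counted from the hybrid side, 79.0% of Nipponbare/93-11 peaks overlapped peaks of both parents, 10.1% of Nipponbare alone, 7.04% of 93-11 alone and 3.81% (1171 peaks) of neither. In 93-11/Nipponbare the shares were 81.2%, 8.72%, 7.07% and 2.98% (886 peaks). Moved lists left 74.6% of Nipponbare/93-11 and 73.7% of 93-11/Nipponbare peaks without a parental peak. Among the peaks in neither parent, 465 of Nipponbare/93-11 (39.7%, 36.9 to 42.6%) and 457 of 93-11/Nipponbare (51.6%, 48.2 to 54.9%) were also in the other hybrid, where moved lists gave 21.9% and 21.7%.

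Hybrid peaks in neither parent were narrow and evenly spread. Their median width was 979 bp in Nipponbare/93-11 and 1018 bp in 93-11/Nipponbare, beside 1380 and 1493 bp for the other peaks of each hybrid. They made up 10.7% of the narrowest of 5 width classes of Nipponbare/93-11 peaks and 1.42% of the fourth class, and 9.34% and 0.705% in 93-11/Nipponbare. By chromosome they ran from 2.82% (chromosome 12) to 4.25% (chromosome 11) in Nipponbare/93-11 and from 2.58% (chromosome 2) to 3.61% (chromosome 4) in 93-11/Nipponbare. The nearest parental peak lay 2408 bp away at the median for Nipponbare/93-11 and 2802 bp for 93-11/Nipponbare, and 21.5% and 20.1% had one within 1 kb.

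H3K9ac was rarer on them than on the other hybrid peaks. In Nipponbare/93-11, H3K9ac lay on 65.2% (60.6 to 69.5%) of those that both hybrids listed and on 55.0% (51.2 to 58.7%) of those in Nipponbare/93-11 alone, against 94.5% of peaks also in a parent. In the parents, which had no H3K4me3 peak there, H3K9ac was nevertheless listed on 46.5% (Nipponbare) and 52.5% (93-11) of the 465 in both hybrids. A share of these places thus carried an active mark in a parent without being listed for H3K4me3.

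The widest regions in both hybrids and neither parent were chr9:15279553-15284678, with 4994 bp in Nipponbare/93-11 and 3746 bp in 93-11/Nipponbare, chr4:22189413-22194486, with 2918 and 5057 bp, and chr3:9469293-9473530, with 3988 and 4237 bp. H3K9ac was listed in both hybrids at all 3. The widest peaks of Nipponbare/93-11 alone were chr12:27427799-27432340 (4541 bp), where all 4 lines had H3K9ac and H3K27me3, and chr5:14770564-14774924 (4360 bp). In 93-11/Nipponbare alone, chr1:8519460-8523419 (3959 bp) had H3K9ac in both hybrids and 93-11. The other, chr9:3-36957, began at the end of the chromosome and spanned 36954 bp, where the next widest peak of that list had 6560 bp, and no other list of any mark had a peak there. Without it the 93-11/Nipponbare list still covered 47.3 Mb.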

How the data were processed

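H3K4me3 chromatin immunoprecipitation was sequenced in shoots of 4 lines, with 1 library each. The authors deposited 1 list of regions per library with chromosome, start and end; the smallest start is 1, and width was taken as end minus start. Not given in the sources used here are the aligner, the peak caller with its threshold and control, and the genome build. No annotation of the files' build was at hand, so no gene or sequence is given, and no depth or floor can be stated. The 8 RNA samples were not used; the other 12 lists were used only for overlap with H3K4me3 peaks.

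Overlap meant at least 1 bp. The comparisons by shift, chromosome, width, region and hybrid peak used the 12 nuclear chromosomes. Width classes held equal numbers of the peaks of a list. Alternatives were a 50% reciprocal overlap, peaks at or above their list's median width, lists shortened to their widest peaks at the length of the shortest list, merging of peaks under 500 bp apart, folds of 1.25 and 2, covered length over all regions of 4 lines and, chosen after seeing the data, centred ratios and the 8 moves of 10 to 100 kb. Regions were named by rank of width or of width ratio within each class, 3 per class, or 2 for peaks of 1 hybrid alone. Members, lists and rules were chosen with earlier results of these data known. Overlap, shift and width routines were tested on the H3K4me3 lists and on thinned, shifted or widened copies of them with known answers. Scripts ran in Python 3.11.15 with pandas 2.3.3 and numpy 2.4.6, intervals came from scipy 1.17.1, and plots from matplotlib 3.10.9.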

Additional observations from a re-analysis of the deposited data

Results flagged for a closer look

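The 2 hybrids differed in how the peaks of one parent fared beside those of the other, and the difference was not tested. In Nipponbare/93-11 the share of Nipponbare-only H3K4me3 peaks listed was 11.1 points above that of 93-11-only peaks. In 93-11/Nipponbare the same difference was -0.709 points, with shares whose intervals overlap. Both values moved with the processing: over the overlap alternatives they ran from 2.78 to 21.1 points in Nipponbare/93-11 and from -7.06 to 7.43 points in 93-11/Nipponbare, where shortened lists gave the highest and the removal of narrower peaks the lowest value. In each alternative the value of Nipponbare/93-11 was the higher one. Each hybrid has 1 library, so a difference between hybrids and one between libraries cannot be told apart, and the direction rests on the labels.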

How the results depend on the processing

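Of 52 alternative values for 12 shares, 11 stayed within the interval of the reported value and 41 moved; pairs of values are for Nipponbare/93-11 and 93-11/Nipponbare in turn. With a 50% reciprocal overlap, Nipponbare-only peaks were listed at 78.4 and 65.8%, 93-11-only at 66.4 and 65.9%, parent-shared at 98.4 and 97.9%, and 4.59 and 3.72% of hybrid peaks were in neither parent. With peaks of at least the median width these were 57.7 and 49.0%, 54.9 and 56.0%, 92.3 and 92.1%, and 11.9 and 11.1%; with shortened lists 71.3 and 60.6%, 50.2 and 53.2%, 93.8 and 95.9%, and 2.72 and 2.11%. By construction, the last 2 settings drop narrow peaks from the lists compared. A peak counted there as single-parent or as not listed can thus overlap a narrower, dropped peak of the other list. Their classes are not those of the reported setting. Nipponbare/93-11 stayed ahead of 93-11/Nipponbare for Nipponbare-only peaks by 8.75 to 12.8 points in the reported setting and these alternatives, merging included, and the gap for 93-11-only peaks ran from -3.05 to 0.914 points. Merging peaks under 500 bp apart gave 3.56 and 2.78% in neither parent, 2.22 and 3.39% widened and 1.24 and 0.468% narrowed. The lower fold gave 8.38 and 16.3% widened and 5.67 and 1.76% narrowed, and the fold of 2 gave 0.220 and 0.359% and 0.131 and 0.0253%. Covered length over all regions of 4 lines gave 1.87% widened in Nipponbare/93-11. Centring 93-11/Nipponbare on its median ratio gave 1.51% widened and 0.613% narrowed. The other moved values have no tested cause. No paired analysis was possible because each line has 1 library. The unknown depth limits every statement on a peak that is not listed.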
